A study of Mus musculus with 7 samples.

Results

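The 39 genes described here encode proteins of the cell cycle and of DNA replication: the helicase and clamp of the replication fork, enzymes of nucleotide supply, cyclins and their kinases, mitotic kinases and checkpoint proteins, proteins of the spindle and of cytokinesis, and the proliferation markers Mki67 and Top2a. They were chosen by symbol, and all 39 of 39 were found among the 23420 genes of the deposited count table. RNA was sequenced from microglia, the macrophages that reside in the brain, of 7 mice at postnatal day 30. The 4 cKO mice carried floxed Srgap2 alleles (Srgap2f/f) together with Tmem119creErt2, a recombinase made in microglia that tamoxifen activates. The 3 WT mice were Srgap2f/f littermates that lacked it, so both groups carried the floxed alleles. Tamoxifen reached both groups by gavage, at 75 ug per g of body weight, given 2 times, on postnatal days 8 and 10. The recombinase was in the cKO mice only, so its effect and that of the lost gene cannot be told apart here. Cells were sorted from 1 cortex per mouse, about 100000 of them, by CD11b, low CD45 and CX3CR1. Each library came from a separate numbered mouse, so that p-values measure the spread between mice.

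A cell that divides first passes a commitment step in G1, where D-type cyclins with Cdk4 or Cdk6 phosphorylate the Rb protein and free E2F factors to transcribe the genes of S phase. The MCM helicase then unwinds DNA at licensed origins, PCNA clamps polymerases to the template, and ribonucleotide reductase supplies deoxynucleotides. Later, Cdk1 with cyclin B drives mitosis, and genes of this late phase are repressed in resting cells by the DREAM complex and transcribed when B-Myb and FoxM1 replace it. Microglia renew themselves within the brain: they divide often in the first postnatal weeks and seldom in the adult. Most of the late genes are made only in dividing cells, whereas MCM, D-cyclin and Cdk4 transcripts are also found in cells that are not dividing.

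Promoters are shown for the 5 members with the largest ratios of cKO to WT read totals among those whose groups did not overlap, a choice made after the values were seen. The letters are the 150 bases before the annotated start, from RefSeq (GRCm38.p6), and each is written 5′ to 3′ along the gene. Capitals mark 4 motifs on either strand: CCAAT, the box bound by NF-Y; TTTGAA, the CHR element of late cell cycle genes; and TTCCCGC and TTNGCGC, forms of the E2F site. A motif on the other strand is seen as its reverse complement, such as ATTGG for CCAAT. Rrm2 lies at chr12:24708104-24708253 (plus strand), Top2a at chr11:99024190-99024339 (minus), Mki67 at chr7:135716380-135716529 (minus), Bub1 at chr2:127831860-127832009 (minus) and Cdca8 at chr4:124936918-124937067 (minus).
Rrm2: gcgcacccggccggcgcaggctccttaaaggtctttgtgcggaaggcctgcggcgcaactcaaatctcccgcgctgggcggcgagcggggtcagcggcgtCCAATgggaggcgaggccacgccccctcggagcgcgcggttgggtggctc
Top2a: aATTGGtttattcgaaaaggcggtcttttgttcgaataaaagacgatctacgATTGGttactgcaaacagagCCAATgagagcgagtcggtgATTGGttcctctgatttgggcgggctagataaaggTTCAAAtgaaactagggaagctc
Mki67: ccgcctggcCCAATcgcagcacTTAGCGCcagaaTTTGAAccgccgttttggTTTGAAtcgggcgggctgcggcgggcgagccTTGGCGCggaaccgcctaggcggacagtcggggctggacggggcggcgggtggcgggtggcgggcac
Bub1: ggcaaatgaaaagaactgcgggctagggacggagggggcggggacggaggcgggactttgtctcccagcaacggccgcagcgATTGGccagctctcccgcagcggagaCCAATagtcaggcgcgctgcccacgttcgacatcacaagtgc
Cdca8: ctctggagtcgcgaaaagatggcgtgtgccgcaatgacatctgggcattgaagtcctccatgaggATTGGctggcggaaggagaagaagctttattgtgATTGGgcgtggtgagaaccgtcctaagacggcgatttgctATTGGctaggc
The Rrm2 stretch held 1 CCAAT box, 50 bases before the start, and no other of these motifs, and Cdca8 held 3 boxes. Top2a held CCAAT boxes in both directions and TTTGAA at 23 bases. Mki67 held 1 box, 2 copies of TTTGAA and 2 of TTNGCGC. Bub1 held 2 boxes, at 68 and 42 bases.

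These letters were common among the members. In the 250 bases before the start, 28 of 35 promoters of 32 members held CCAAT (80.0%), against 35.1% of the 11489 promoters of genes tested and 33.8% of all 32851 in the table. TTTGAA stood in 10 of 35 (28.6%), against 10.4% of promoters of genes tested and 16% of all. Within the nearest 100 bases the shares were 68.6% against 21.9% of promoters of genes tested for CCAAT, and 25.7% against 3.04% for TTTGAA. The E2F forms were rarer: TTCCCGC was in 3 of 35 members' promoters (8.57%, against 6.93% of promoters of genes tested and 3.82% of all) and TTNGCGC in 7 (20%, against 9.06% and 5.19%). Within 100 bases TTCCCGC was in 2.86% and TTNGCGC in 8.57%, against 3.01% and 4.37% of promoters of genes tested. Cdk1, Hmgb2, Ube2c, Cdc20, Ccnb2, Kif11, Mcm2 and Prc1 were further members with TTTGAA. The genes of a pathway known for these elements were compared with all promoters, so the shares describe the list and are not a result of the genotype. Of the members' matches, 1 overlapped a match of another motif. Kif20a, Ccne2, Mcm4, Aurkb, Ccnd1, Tpx2 and Ccna2 had no promoter entry.

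Total counts ran from 27016173 to 35707304 per library. Srgap2 itself was at 212 to 344 CPM (the deposited counts scaled to a common TMM-adjusted library size) in cKO and at 691 to 979 CPM in WT, lower in every cKO library (two-sided exact permutation p = 0.0286, the smallest that 35 splits allow). The defining microglial markers were abundant, with a summed level of 53395 to 61897 CPM in cKO against 62683 to 65170 CPM in WT. The sum was thus lower in every cKO library. Of its 12 genes, 5 had a fold change above 0 and 7 below, with a median log2 fold change of -0.03. Of the 12, 1 passed, Tmem119, lower in cKO, where 0.0417% of all genes tested were called lower. The Tmem119 locus drives the recombinase. Tmem119 was still called without cKO replicate 1 or 4 (edgeR adjusted p = 0.0213 and 0.0305). It was not called without cKO replicate 2 or 3 or WT replicate 1, 2 or 3 (0.0995 to 0.221). Its part in the members' values was not tested. Xist was at 69.4 CPM or more in cKO replicates 2 and 4 and WT replicates 2 and 3 and at 0.66 CPM or less in the other libraries. Ddx3y, a gene of the Y chromosome, was at 27.2 to 30.4 CPM in those other libraries and at 0 to 0.18 CPM where Xist was high. By these 2 genes both groups held mice of both sexes, which the labels do not give. The rank correlation across genes between a library's deviation and GC content was lowest in cKO replicate 1 (-0.50) and highest in cKO replicate 4 (0.42); genes are not independent replicates. Median GC content was 47.9% for the 32 members tested and 49.8% for all genes tested.

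At postnatal day 30, transcripts of mitosis were scarce in these microglia and those of the replication fork, the D-type cyclins and Cdk4 were plentiful. Of the 39 members, 12 had a WT mean of at least 10 CPM, 10 lay between 1 and 10 CPM and 17 were under 1 CPM. Per kb of transcript, the highest WT levels were those of Cdk4, the G1 kinase (40.7 CPM per kb), Pcna, the sliding clamp (37.9), Ccnd1, the D-type cyclin bound by Cdk4 (26.7), Mcm3 (23.8) and Ccnd3 (10.2). At the low end stood Bub1, a kinase of the spindle checkpoint, at 0.00544 CPM per kb, Mki67 at 0.0266, the kinesin Cenpe at 0.0296 and Ube2c at 0.0297. Of the summed CPM of the members in WT, 43.6% came from the 7 replication fork genes and 42.8% from the 5 genes of G1. The 4 cyclins and kinase of S phase, G2 and mitosis gave 0.862%, and the 8 spindle genes 1.39%. In cKO the corresponding shares were 44.5%, 41.2%, 0.953% and 1.39%. In bulk RNA, fewer cells of a type and less RNA per cell cannot be told apart, so a level near the floor can be few dividing cells or little transcript in many.

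**Figure D1:**
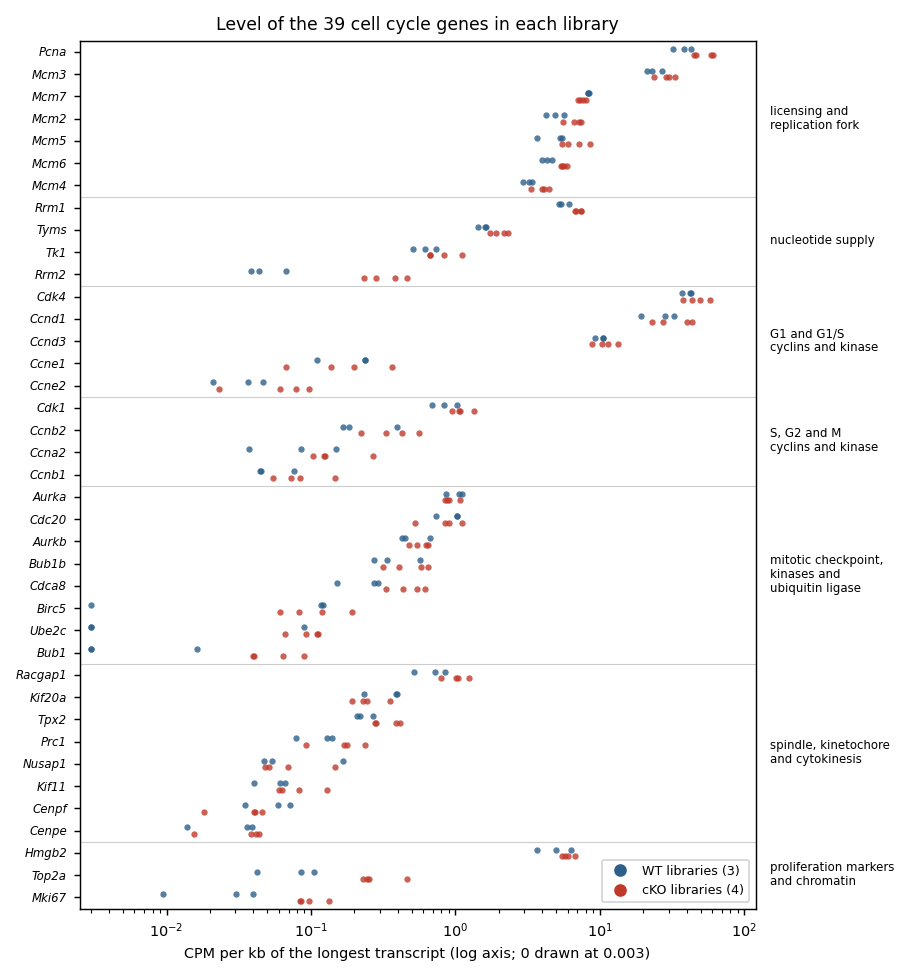
Level of each of the 39 genes in each library, in CPM per kb of the longest transcript (log axis, a count of 0 drawn at 0.003), grouped by role, with WT libraries in blue and cKO libraries in red. Fork genes, Ccnd1, Ccnd3 and Cdk4 lie to the right, Ccne1, Ccne2 and most mitotic genes lie below 1 CPM per kb, and Rrm2, Top2a and Mki67 are the tested genes whose groups stand farthest apart.

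Between genotypes, 1 member passed the test: Rrm2 rose in cKO, 0 members fell, and 31 of the 32 tested did not pass (edgeR quasi-likelihood, adjusted p under 0.05 over all 11991 genes tested). The background was 0.317% of genes called higher and 0.0417% called lower. At an unadjusted p under 0.05, 11 members were higher and 0 lower, where 9.65% and 6.87% of all genes tested were. Every cKO library lay above every WT library for 10 of the 32 and below for 1, Mcm7, against 8.86% and 7.20% of genes tested. Fold changes were above 0 for 26 of the 32, against 48.1% of genes tested, and the members' median log2 fold change was 0.38, against -0.01 for all genes tested. DESeq2 called 1 member, Mcm6 (adjusted p = 0.0475), and gave no adjusted p for 13 of the 32, Rrm2, Top2a and Mki67 among them, while limma-voom called 0. Of all 11991 genes, in both directions together, DESeq2 called 538 and limma-voom 47.

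These counts are over the members that passed the filter on low counts, which asks for about 0.329 CPM in at least 3 libraries, and they are a description. Ccne2, Ccnb1, Bub1, Ube2c, Cenpe, Kif11 and Nusap1 stayed under it and were not tested. Of the 32 tested, 23 reached that level in all 7 libraries, 8 reached it in fewer than 3 WT libraries and 2 in fewer than 3 cKO libraries (Ccne1 and Birc5, which are also among the 8). Rrm2 reached it in 0 of 3 WT libraries, so that it entered the test through the cKO libraries alone. Mki67, Ccna2 and Ccnb2 reached it in 1 WT library and Top2a and Prc1 in 2. By their WT libraries alone these genes would not have been tested, and the counts above include them.

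**Figure D2:**
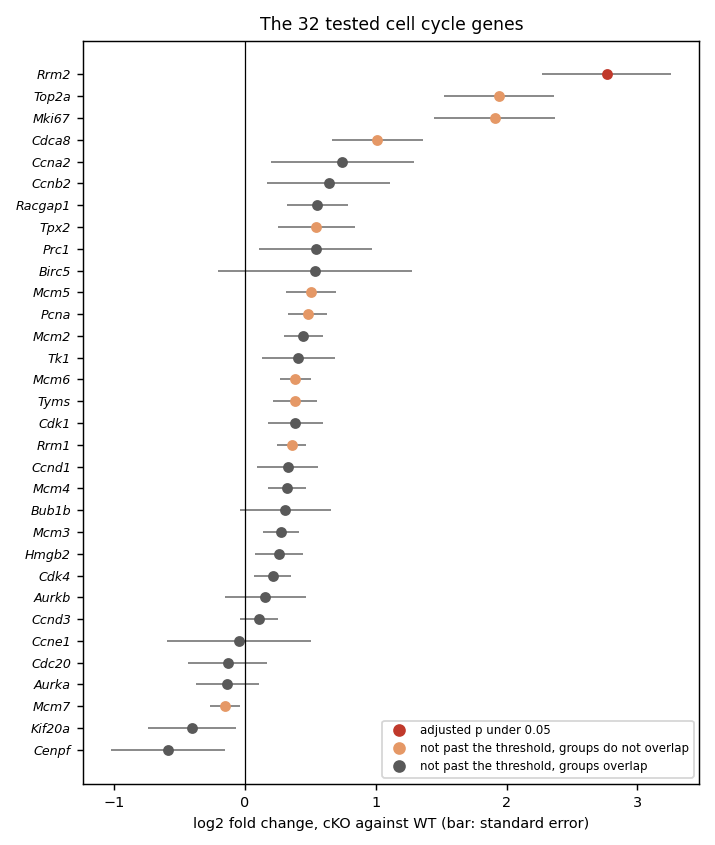
Log2 fold change of cKO against WT for the 32 tested genes, with its standard error as a bar; red marks the adjusted p under 0.05, orange the genes whose libraries do not overlap between groups, grey the rest. Rrm2, at 2.77, is the 1 red point, and 26 of the 32 points lie right of 0.

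Among the proteins of nucleotide supply, Rrm2, the small subunit of ribonucleotide reductase, whose level limits the enzyme to S phase, had 18, 15, 23 and 33 reads in the cKO libraries (replicates 1 to 4 in order). In the WT libraries it had 4, 3 and 3. All cKO libraries lay above all WT libraries, though every value was small. The cKO mean was 0.745 ± 0.224 CPM (SD, n = 4), the WT mean 0.108 ± 0.033 CPM (SD, n = 3), for a log2 fold change of 2.77 (SE 0.49, adjusted p = 0.0452). By reads alone, 89 in cKO against 10 in WT, the depth-adjusted ratio was 7.11, with an exact 95% interval of 3.69 to 15.3 that covers counting error only. Rrm2 was still called without cKO replicate 1 (adjusted p = 0.0343). It was not called without cKO replicate 2 (0.0967), 3 (0.137) or 4 (0.0613), or without WT replicate 1 (0.0995), 2 (0.265) or 3 (0.177), while its log2 fold change stayed between 2.58 and 3.01. With the replicate number as a block, which leaves out cKO replicate 4, the adjusted p was 0.056. The like value is 0.0613, from the unblocked fit without that library.

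Rrm1, the large subunit of the same enzyme, is more stable through the cycle and was far more abundant. Its level was 37.5, 40.9, 37.0 and 40.8 CPM in cKO against 28.6, 33.3 and 29.4 CPM in WT. The groups did not overlap, but this fell short of the threshold (log2 fold change 0.36, SE 0.11, adjusted p = 0.159). Tyms, thymidylate synthase, stood at 6.72, 7.38, 8.48 and 8.95 CPM in cKO against 5.55, 6.32 and 6.25 CPM in WT, again without overlap and short of the threshold (0.38, SE 0.17, adjusted p = 0.278). For Tk1, the thymidine kinase of the salvage pathway, the groups overlapped, with means of 2.04 ± 0.515 and 1.54 ± 0.279 CPM (adjusted p = 0.509). Over the 4 genes the summed level was 46.9 to 53.5 CPM in cKO against 36.1 to 41.0 CPM in WT.

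At the replication fork, 0 of 7 genes passed, 4 had an unadjusted p under 0.05 and all of these were higher in cKO, and the median log2 fold change was 0.38. Pcna was at 70.1, 67.8, 90.1 and 92.3 CPM in cKO against 48.6, 58.4 and 65.4 CPM in WT. Every cKO value lay above every WT value, the closest pair being 67.8 and 65.4 CPM, short of the threshold (log2 fold change 0.48, SE 0.15, adjusted p = 0.159). Mcm6 had the tightest cKO values of the helicase subunits relative to their mean, 24.6, 25.8, 24.0 and 23.6 CPM, against 17.2, 20.2 and 18.8 CPM in WT (0.38, SE 0.12, adjusted p = 0.157). Mcm5 was at 18.6, 24.3, 20.2 and 29.1 CPM in cKO against 12.4, 18.5 and 17.9 CPM in WT. Its groups were apart only by the margin from 18.5 to 18.6 CPM (0.50, SE 0.19, adjusted p = 0.213).

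The groups overlapped for the other three subunits on the higher side. Means were 23.5 ± 2.86 and 17.2 ± 2.44 CPM for Mcm2 in cKO and WT (0.45, adjusted p = 0.172), 98.8 ± 13.4 and 81.7 ± 10.4 CPM for Mcm3 (0.27, adjusted p = 0.339), and 14.3 ± 1.69 and 11.4 ± 0.773 CPM for Mcm4 (0.32, adjusted p = 0.305). Mcm7 went the other way, at 22.5, 23.7, 21.6 and 21.1 CPM in cKO against 24.5, 24.7 and 24.9 CPM in WT. All of its cKO libraries lay below all WT libraries, and the log2 fold change of -0.15 (SE 0.11, adjusted p = 0.543) did not pass. The 6 subunits form 1 ring, and the values of Mcm7 differ in sign from those of the other 5. In GENCODE M21 exon bases of Mcm7 are shared with Cops6, Ap4m1 and the microRNA genes Mir25 and Mir93, and without a stated strand setting such reads cannot be told apart.

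**Figure D3:**
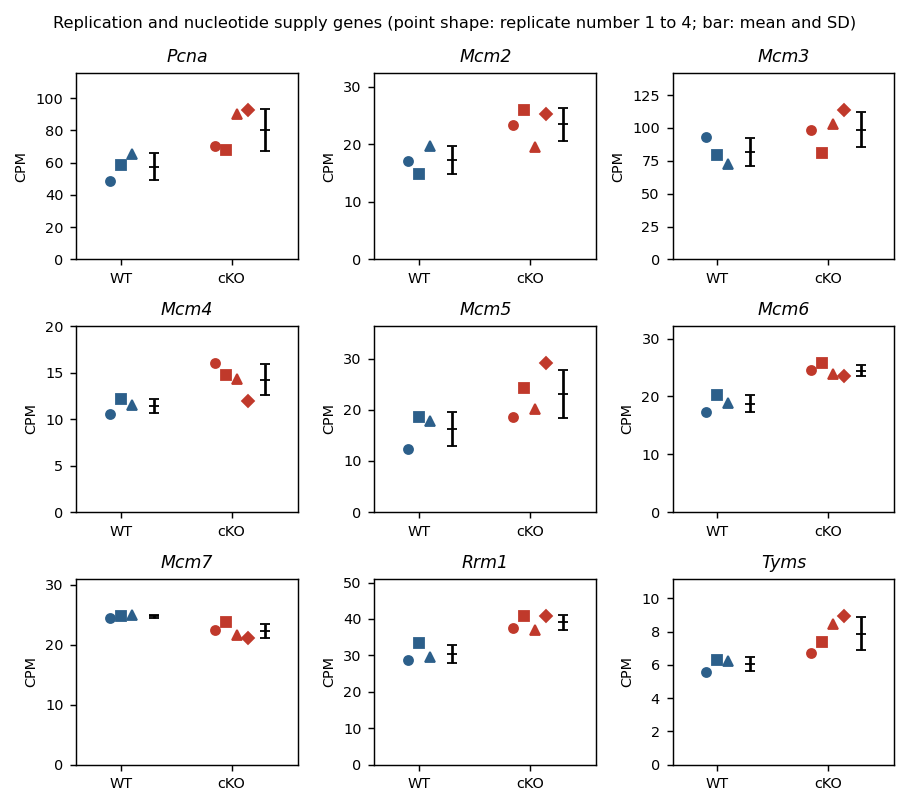
Level in CPM of 7 replication fork genes and of Rrm1 and Tyms in each library (point shape: replicate number), with the mean and SD of each group as a bar, on axes from 0. Pcna, Mcm5, Mcm6, Rrm1 and Tyms show no overlap with cKO higher, Mcm7 none with cKO lower, and Mcm2, Mcm3 and Mcm4 overlap.

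Of the G1 genes, Ccnd1, Ccnd3 and Cdk4 were abundant and Ccne1 and Ccne2 were near the floor. Among the 4 tested, 0 passed, 0 had an unadjusted p under 0.05, DESeq2 and limma-voom called 0, and the median log2 fold change was 0.16. Ccnd1 was at 86.0, 102, 163 and 150 CPM in cKO against 72.5, 105 and 122 CPM in WT, with wide overlap (0.33, SE 0.23, adjusted p = 0.526). Ccnd3 had means of 42.2 ± 7.34 and 39.2 ± 2.90 CPM (0.11, adjusted p = 0.769), and Cdk4 of 96.7 ± 17.4 and 83.6 ± 6.16 CPM (0.21, adjusted p = 0.504). For each of Ccnd1, Ccnd3 and Cdk4 the lowest cKO library was replicate 1. Ccne1, the E-type cyclin of the G1/S step, had 4 to 20 reads in cKO and 6 to 17 in WT (-0.05, SE 0.55, adjusted p = 0.978). Its partner gene Ccne2 had 2 to 8 and 2 to 5 reads and was not tested.

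Of the cyclins and kinase of S phase, G2 and mitosis, 0 of 3 tested passed in edgeR, 0 had an unadjusted p under 0.05, and DESeq2 and limma-voom called 0. Cdk1, the mitotic kinase, was at 4.71, 5.92, 4.11 and 4.66 CPM in cKO against 3.0, 3.65 and 4.49 CPM in WT. The groups overlapped through WT replicate 3 (0.38, SE 0.21, adjusted p = 0.391). Its cyclin partners were nearer the floor: Ccna2 had 23, 11, 10 and 10 reads in cKO and 3, 14 and 9 in WT (0.74, SE 0.55, adjusted p = 0.548). Ccnb2 had 10 to 28 reads in cKO and 7 to 19 in WT (0.64, SE 0.47, adjusted p = 0.548), and Ccnb1 had 4 to 12 and 3 to 6 and was not tested. The standard errors were of the size of the differences for these cyclins.

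Mki67 and Top2a, the transcripts most used to mark dividing cells, had the largest fold changes after Rrm2 among the 32 tested members but did not pass. For both, the WT libraries alone would not have met the filter on low counts. Top2a, the topoisomerase that untangles chromosomes, had 38, 38, 33 and 79 reads in cKO and 15, 7 and 16 in WT. The lowest cKO library held 33 reads and the highest WT library 16, and cKO replicate 4 stood above the rest. Its means were 1.56 ± 0.579 and 0.406 ± 0.167 CPM, with a log2 fold change of 1.94 (SE 0.42, adjusted p = 0.0829) and a depth-adjusted ratio of read totals of 3.95 (exact 95% interval 2.78 to 5.76). Without any filter on low counts it passed (1.94, adjusted p = 0.0424). Mki67, whose protein coats mitotic chromosomes, had 39, 25, 27 and 28 reads in cKO and 11, 3 and 11 in WT. The groups were apart here too, at means of 1.01 ± 0.236 and 0.268 ± 0.157 CPM (log2 fold change 1.91, SE 0.46, adjusted p = 0.107, ratio of totals 3.80 with an interval of 2.46 to 6.11). Hmgb2, an abundant chromatin protein of dividing cells, overlapped between groups at 15.8 ± 1.47 and 13.1 ± 3.54 CPM (0.26, adjusted p = 0.518).

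**Figure D4:**
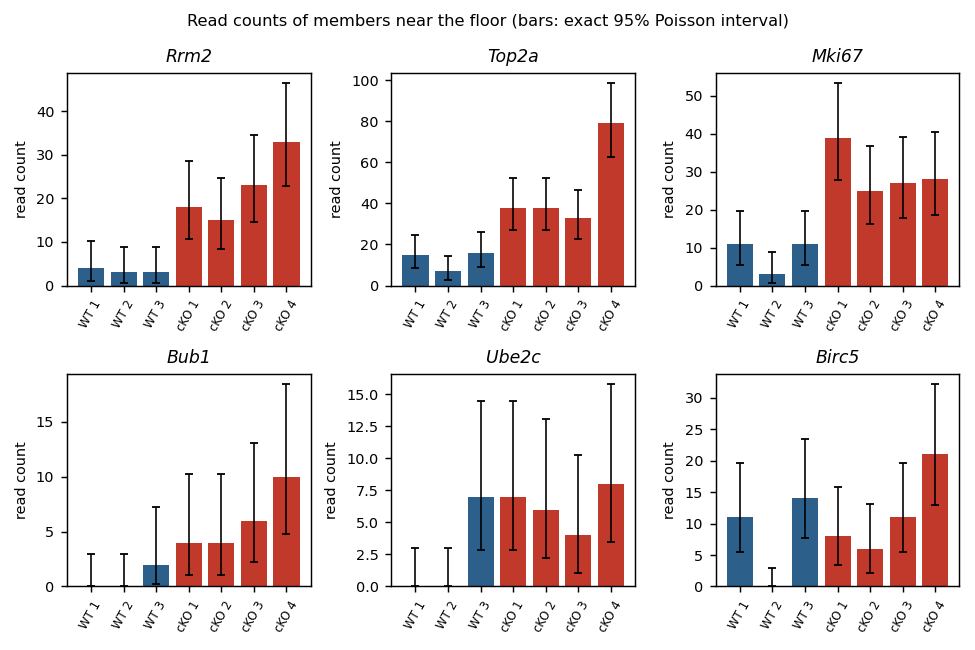
Read counts of Rrm2, Top2a, Mki67, Bub1, Ube2c and Birc5 in each library, with WT in blue and cKO in red; bars start at 0 and whiskers are exact 95% Poisson intervals (for 0 reads, up to 3). Rrm2, Top2a, Mki67 and Bub1 show every cKO bar above every WT bar, and Ube2c and Birc5 do not.

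Bub1, Bub1b, Cdc20, Ube2c, Birc5, Cdca8, Aurka and Aurkb time the separation of chromosomes, and 0 of the 6 tested passed. By unadjusted p under 0.05, 1 was higher and 0 lower, and DESeq2 and limma-voom called 0. That gene was Cdca8, borealin of the chromosomal passenger complex, with 53, 33, 40 and 67 reads in cKO and 25, 16 and 35 in WT. By level its groups did not overlap, 1.12 CPM being the lowest in cKO and 0.977 CPM the highest in WT (1.01, SE 0.35, adjusted p = 0.18). For other members of the same complex the groups overlapped, and whether they differ from Cdca8 was not tested. Aurkb, its kinase, was at 1.12 ± 0.149 and 1.01 ± 0.257 CPM (0.15, adjusted p = 0.856). Birc5, survivin, had 8, 6, 11 and 21 reads in cKO and 11, 0 and 14 in WT (0.54, SE 0.74, adjusted p = 0.776). The count of 0 in WT replicate 2 allows up to 3 reads, or 0.0952 CPM.

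Bub1 was under the filter, with 4, 4, 6 and 10 reads in cKO and 0, 0 and 2 in WT. Its 24 cKO reads against 2 WT reads give a depth-adjusted ratio of 9.59, with a counting interval of 2.38 to 83.7 that leaves the size of the difference undetermined at this depth. Its cKO libraries all lay above its WT libraries, but no share of such genes was computed for genes under the filter. Its paralog Bub1b, BubR1 of the checkpoint complex, was more abundant and overlapped, at 1.79 ± 0.566 and 1.45 ± 0.573 CPM (0.31, adjusted p = 0.718). Ube2c, the ubiquitin-conjugating enzyme of the anaphase-promoting complex, had 4 to 8 reads in every cKO library and 0, 0 and 7 in WT, and was not tested (ratio of totals 2.85, counting interval 1.20 to 7.81). Cdc20, the activator of that complex, was at 1.52 ± 0.438 CPM in cKO against 1.67 ± 0.304 CPM in WT (-0.13, adjusted p = 0.873), and Aurka, the kinase of spindle poles, at 1.76 ± 0.189 and 1.93 ± 0.253 CPM (-0.14, adjusted p = 0.829).

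The spindle, kinetochore and cytokinesis genes were mixed in sign, and 0 of the 5 tested passed. By unadjusted p under 0.05, 1 was higher and 0 lower, and DESeq2 and limma-voom called 0. Racgap1, a protein of the central spindle, was at 3.53, 4.50, 4.66 and 5.58 CPM in cKO against 3.80, 2.32 and 3.24 CPM in WT, and cKO replicate 1 overlapped with WT (0.55, SE 0.23, adjusted p = 0.262). Tpx2, the activator of Aurka on spindle microtubules, had 1.21 to 1.79 CPM in cKO against 0.913 to 1.17 CPM in WT, with no overlap (0.55, SE 0.29, adjusted p = 0.377). Prc1, which bundles antiparallel microtubules, overlapped (0.54, adjusted p = 0.579). The means of Cenpf, a kinetochore protein, were 0.406 ± 0.138 CPM in cKO against 0.614 ± 0.205 CPM in WT (-0.59, SE 0.44, adjusted p = 0.552). Those of Kif20a, a kinesin of cytokinesis, were 0.934 ± 0.248 and 1.24 ± 0.336 CPM (-0.41, SE 0.34, adjusted p = 0.594). Under the filter, the motor genes Cenpe (4 to 10 reads in cKO, 3 to 11 in WT) and Kif11 (8 to 18 and 7 to 10) and the microtubule binder Nusap1 (5 to 15 and 6 to 16) overlapped.

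**Figure D5:**
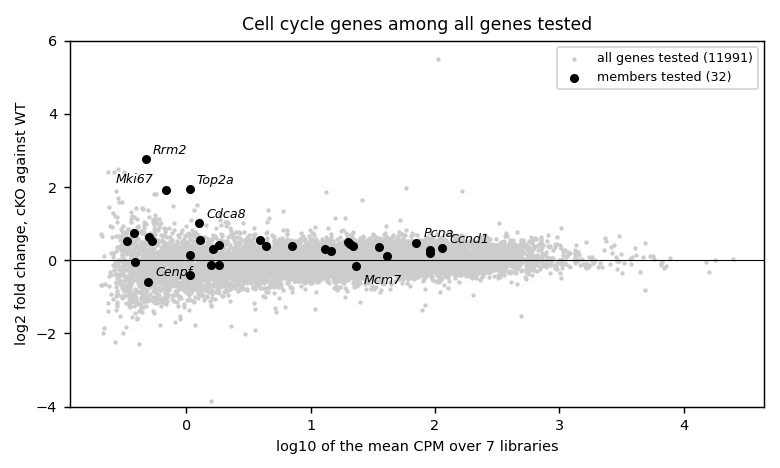
Log2 fold change of cKO against WT for each of the 11991 genes tested (grey) and the 32 members tested (black), against the log10 of the mean CPM over 7 libraries. Rrm2, Top2a and Mki67 lie near or under 1 CPM, where the grey cloud is widest, and the abundant members such as Ccnd1 and Pcna lie close above 0.

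By library, cKO replicate 4 held the highest value of 17 of the 39 members and WT replicate 1 the lowest of 17. Neither these counts nor the mean that follows was computed over all genes tested. The mean log2 CPM of the 32 tested members was 2.15, 1.99, 2.19 and 2.39 across the cKO libraries and 1.70, 1.69 and 1.83 across the WT libraries, so the groups did not overlap in this mean. The mice have numbers in 2 runs, from 1058 to 1062 and from 1101 to 1109; the labels do not call these batches. The share of all genes tested above 0 was not computed within a run, so the counts that follow have no background. Within the first run (2 cKO, 1 WT) the median difference in mean log2 CPM was 0.39, with 25 of 32 members above 0. Within the second (2 cKO, 2 WT) it was 0.34, with 26 of 32 above 0. On that scale, which adds a prior count of 2 and shrinks low genes, Rrm2 differed by 1.57 and 2.67, Top2a by 1.16 and 2.21, Mki67 by 1.28 and 2.01, and Pcna by 0.50 and 0.56 in the first and second run. The main fit called 43 of all 11991 genes tested, and the fits that follow called more. With the run as a block 170 of the 11991 passed, and Pcna was among them (log2 fold change 0.54, adjusted p = 0.0309) beside Rrm2. With log2 CPM of Xist as a covariate 1056 of the 11991 genes passed. Among them were 8 members, all higher in cKO: Pcna (0.51, adjusted p = 0.0381), Mcm2 (0.49, 0.0331), Mcm5 (0.66, 0.00754), Mcm6 (0.41, 0.0434), Rrm1 (0.40, 0.0247), Rrm2 (2.75, 0.00867), Mki67 (1.75, 0.03) and Top2a (1.99, 0.0107). When each library was given offsets by GC content and transcript length, 596 of the 11991 genes passed. Among them were 4 members, namely Rrm2 (2.74, adjusted p = 0.0163), Mki67 (1.91, 0.0334), Top2a (1.98, 0.0376) and Mcm2 (0.47, 0.0482).

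Further genes of the same pathways were taken from lists, which were chosen with earlier results of these data known. Over all genes tested, 9.65% were higher and 6.87% lower at an unadjusted p under 0.05. Of 41 further replication genes tested, 0 passed in edgeR, DESeq2 or limma-voom, 8 were higher and 0 lower at an unadjusted p under 0.05, and the median log2 fold change was 0.14. Rpa1, which coats single-stranded DNA, was at 70.5 ± 4.49 CPM in cKO against 56.5 ± 4.11 CPM in WT (0.32, adjusted p = 0.174). Gins2, a subunit of the active helicase, was at 5.94 ± 1.10 and 3.74 ± 0.888 CPM (0.66, adjusted p = 0.174), and Timeless, a fork protection protein, at 2.30 ± 0.464 and 1.39 ± 0.223 CPM (0.73, adjusted p = 0.205). Pole, the leading-strand polymerase, was at 1.96 ± 0.372 and 1.20 ± 0.126 CPM (0.70, adjusted p = 0.217). These 4 genes were named for the smallest p of the list, and in them no cKO library lay below a WT library. Over the 41 tested, every cKO library lay above every WT library for 6 and below for 0. The shares of all genes tested were 8.86% and 7.20%.

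Of 22 further genes of nucleotide supply, 0 passed in edgeR or limma-voom and DESeq2 called 1 higher and 1 lower. At an unadjusted p under 0.05 there were 4 higher and 1 lower, and the median was 0.16. Paics, an enzyme of purine synthesis, was at 94.6 ± 5.20 CPM in cKO against 66.7 ± 3.52 CPM in WT (0.50, SE 0.10, adjusted p = 0.0694). Ctps, CTP synthase, had 13.4 ± 3.27 and 22.4 ± 1.79 CPM, all cKO libraries being below all WT libraries (-0.74, SE 0.18, adjusted p = 0.112). Shmt2, of mitochondrial one-carbon supply, and Nme1, a nucleoside diphosphate kinase, overlapped between groups (0.36 and 0.47).

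Among the Rb, E2F and DREAM genes 0 of 19 tested passed in edgeR, DESeq2 or limma-voom, with 4 higher and 0 lower at an unadjusted p under 0.05 and a median of 0.10. E2f8, a repressive E2F made in S phase, had 16, 15, 4 and 14 reads in cKO and 2, 0 and 5 in WT (2.42, SE 0.76, adjusted p = 0.159). Every WT library was under the filter level of about 0.329 CPM, so E2f8 entered the test through cKO libraries alone. E2f1, an activating E2F, was at 3.79 ± 0.719 and 2.57 ± 0.432 CPM (0.56, adjusted p = 0.247). Foxm1 and Mybl2, which encodes B-Myb, overlapped between groups, with log2 fold changes of -0.26 and -0.32 (adjusted p = 0.539 and 0.74). Those of E2f5 and of Rbbp4, a histone-binding subunit of DREAM, were 0.46 and 0.32 (adjusted p = 0.246 and 0.223).

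Among CDK inhibitors and further cyclins and kinases 0 of 24 tested passed in edgeR, DESeq2 or limma-voom, with 2 higher and 1 lower at an unadjusted p under 0.05 and a median of 0.03. Cdkn1a, the p21 inhibitor, was at 6.75, 9.37, 9.98 and 10.7 CPM in cKO against 18.3, 11.6 and 12.1 CPM in WT. All cKO libraries lay below all WT libraries, without passing (-0.60, SE 0.21, adjusted p = 0.181). Cdkn1c, the p57 inhibitor, overlapped at 22.2 ± 5.57 and 15.5 ± 2.86 CPM (0.52, adjusted p = 0.242), as did Wee1, the kinase that restrains Cdk1, with 11 to 28 and 6 to 17 reads (1.01, adjusted p = 0.283). Cdk2, the kinase of cyclins E and A, was at 27.5 ± 1.59 and 32.1 ± 2.88 CPM (-0.22, adjusted p = 0.359). Of 16 p53 target genes tested 0 passed in edgeR or limma-voom and DESeq2 called 1 lower. At an unadjusted p under 0.05, 0 were higher and 2 lower, namely Cdkn1a and Btg2, an antiproliferative gene also on the list of dissociation genes (-0.32, adjusted p = 0.142), and 12 of the 16 had a fold change below 0. The summed level of these targets was 640 to 705 CPM in cKO against 752 to 784 CPM in WT.

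Of 38 further mitosis genes tested, among 55 in the table, 0 passed in edgeR, DESeq2 or limma-voom, with 5 higher and 0 lower at an unadjusted p under 0.05 and a median of 0.23. Pbk, a mitotic kinase, had 8, 16, 11 and 16 reads in cKO and 5, 5 and 3 in WT (1.60, SE 0.51, adjusted p = 0.161). It too was under the filter level of about 0.329 CPM in every WT library and entered the test through cKO libraries alone. Kifc1, a minus-end kinesin, was at 1.25 ± 0.191 and 0.738 ± 0.135 CPM (0.75, adjusted p = 0.254), and Cenpa, the centromeric histone, at 3.0 ± 0.666 and 1.92 ± 0.477 CPM (0.64, adjusted p = 0.264). Of the 20 tested histone variants and chromatin proteins of cycling cells 2 rose and 0 fell, against 0.317% and 0.0417% of all genes tested. Fold changes were above 0 for 20 of 20, against 48.1% of genes tested, and the median was 0.40. The list also held Stmn1 and the tubulin genes Tubb5 and Tuba1b. Stmn1, which destabilises microtubules and was listed here as a gene of cycling cells, rose from 9.16 ± 1.16 to 20.5 ± 3.49 CPM (1.16, SE 0.17, adjusted p = 0.0247). Ptma, an acidic chromatin protein, rose from 208 ± 10.1 to 310 ± 20.2 CPM (0.58, SE 0.10, adjusted p = 0.0452), and it has processed pseudogenes, so the assignment of its reads is uncertain. Hmgb1 did not pass (100.7 ± 11.0 and 67.7 ± 4.60 CPM, adjusted p = 0.0707). DESeq2 called 5 genes of this list higher and limma-voom 2. Of all 11991 genes, in both directions together, DESeq2 called 538 and limma-voom 47. Stmn1 and Ptma were still called without cKO replicate 1 or cKO replicate 4. They were not called without cKO replicate 2 (adjusted p = 0.0967 and 0.169), cKO replicate 3 (0.0992 and 0.165), or WT replicate 1 (0.0647 and 0.124), 2 (0.21 and 0.265) or 3 (0.0961 and 0.169).

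Markers of cells that divide in the juvenile cortex or in blood were checked beside these values. No marker list of another cell type held a gene past the threshold in edgeR, DESeq2 or limma-voom, but several lists were mostly untested. Only 3 of 15 monocyte and neutrophil, 2 of 10 lymphocyte, 1 of 6 erythroid and 3 of 9 neuron markers were tested. DESeq2 gave an adjusted p for 0 oligodendrocyte precursor and 0 neuron markers. Genes that were not tested could not pass. At an unadjusted p under 0.05 these lists held 3 genes higher and 2 lower. Of the 10 oligodendrocyte precursor markers in the table, only Olig1 was tested, and their summed level was 0.765 to 1.59 CPM in cKO against 0.987 to 1.33 CPM in WT. Pdgfra, their defining receptor, had 0 reads in 6 of the 7 libraries and 8 in cKO replicate 2. Of the 15 monocyte and neutrophil markers 5 had 0 reads in all libraries. The sum was 9.90 to 11.9 CPM in cKO against 7.02 to 12.3 CPM in WT, so the groups overlapped in the sum. Of the 3 tested, 2 had every cKO library above every WT library, where 8.86% of all genes tested did. By unadjusted p under 0.05, 1 of the 3 was higher in cKO, and the median log2 fold change was 0.47. The sum of 10 lymphocyte markers, nearly all from Cd79b, was 35.3 to 61.4 CPM in cKO against 41.3 to 55.0 CPM in WT. That of 10 border-associated macrophage markers was 77.5 to 145 and 85.7 to 124 CPM. The 6 erythroid markers summed to 20.7 CPM in cKO replicate 4, to 1.49 to 3.89 CPM in the other cKO libraries and to 0.512 to 6.70 CPM in WT. The part of such cells in the members' values was not tested.

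Read assignment bears on some members. In GENCODE M21, 12 of the 39 share exon bases with another gene of the table, such as Tk1 with Afmid, Ccna2 with Exosc9 and Cdca8 with 9930104L06Rik, and 5 have named pseudogenes, Pcna and Tyms among them. Rrm2, Mki67 and Top2a share no exon bases with another gene of the table and have no pseudogene named after them. Pseudogenes under other names were not searched for, so the assignment of their reads stays uncertain.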

How the data were processed

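RNA-seq libraries of 4 cKO and 3 WT mice were compared. The authors deposited whole-number counts per gene symbol, without normalization. The submitters' processing notes name DRAGEN and the build GRCm39. The annotation, the counting rule and the use of strand are not given in the sources used. Members and gene lists were chosen with earlier results of these data known, and all 39 members are named, with up to 4 genes of each further list (those past the threshold, then the smallest p). Foxm1, Mybl2, Alas2 and the marker genes at 0 are named outside that rule, after their values were seen.

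Of 23420 genes, 7033 had no count. Libraries of a group were farther apart than sampling noise (chi-square over its degrees of freedom 18.9 to 98.6), so each counted as 1 replicate. In edgeR 4.0.16 (limma 3.58.1, R 4.3.3), filterByExpr (least count 10, least total 15) left 11991 genes, scaled by TMM and tested with the robust quasi-likelihood test without covariates. Benjamini-Hochberg adjustment ran over all genes tested, with a threshold of 0.05. CPM are relative to TMM-scaled library size, log2 CPM used a prior count of 2, and levels per kb used the longest GENCODE M21 transcript. Intervals on counts are exact at 95%, with a limit of 3 counts for 0. Of 326 list symbols 322 matched.

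Alternatives were RLE and upper-quartile factors, DESeq2 1.42.0, limma-voom, no filter, 1 CPM in 3 libraries, leaving out each library, replicate and mouse-number blocks, a Xist covariate, and GC content and length offsets (loess span 0.3, with values for 99.4% of genes tested). The replicate block left out cKO replicate 4, as no WT library has that number. The test was run on simulated counts first. Promoters came from RefSeq, GRCm38.p6.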

Additional observations from a re-analysis of the deposited data

Results flagged for a closer look

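Of the 39 members, 2 had a library apart from the other cKO libraries by more than Dixon's 95% critical value for 4 samples, which chance exceeds in about 5% of groups. Ccna2 was at 0.796 CPM in cKO replicate 1, against 0.306 to 0.372 CPM in the other cKO libraries. Top2a was at 2.42 CPM in cKO replicate 4, against 1.20 to 1.32 CPM. The exact 95% Poisson interval, which covers counting error only, is 14.6 to 34.5 for the 23 Ccna2 reads in cKO replicate 1 and 62.5 to 98.5 for the 79 Top2a reads in cKO replicate 4. Top2a kept all cKO libraries above all WT libraries, and Ccna2 overlapped between groups.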

How the results depend on the processing

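The members' median log2 fold change was 0.32 to 0.41 under all alternatives. Promoter shares of the members were lower in 100 bases than in 250: 68.6% against 80% for CCAAT, 25.7% against 28.6% for TTTGAA, 2.86% against 8.57% for TTCCCGC and 8.57% against 20% for TTNGCGC. Calls were less stable. Of all genes, 43 passed, 538 with DESeq2, 89 without a filter, 170 blocked by mouse number, 1056 with the Xist covariate, 596 with GC content and length offsets, and 4 to 142 when 1 library was left out. Of the members, 1 passed, 0 with limma-voom, 0 with the filter of 1 CPM (which removed Rrm2), 2 without a filter (Rrm2 and Top2a), 2 blocked by mouse number, 8 with the Xist covariate, 4 with the offsets, and 0 to 1 when 1 library was left out; the cause was not tested.

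Replicate numbers are shared by the groups but do not pair the mice: same-numbered deviations correlated at 0.387, 0.069 and -0.173, and only WT replicate 1 correlated best with its own number. With the replicate block, which leaves out cKO replicate 4, 318 of 11870 genes and 0 members passed. Unblocked and without that library, 44 of 11870 genes and 0 members passed.

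Signs turned for genes with differences near 0. When 1 library was left out, Ccne1 ranged from -0.53 to 0.23 (above 0 without cKO replicate 1 or 2 or WT replicate 2 or 3), Cdc20 from -0.297 to 0.0253 (without cKO replicate 1), Ccnd3 from -0.0054 (without cKO replicate 4) to 0.182, and Birc5 from -0.0584 (without WT replicate 2) to 0.98. Ccne1 was at 0.14 blocked by mouse number and Cdc20 at 0.0111 with the Xist covariate. Ccnd3 was at -0.0089 with the replicate block, which also leaves out cKO replicate 4. Depth limits the 17 members under 1 CPM in WT, whose counts run from 0 to 79 reads per library.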

Other observations

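The dissociation genes, which are induced when tissue is processed, held 0 of 16 tested genes past the threshold in edgeR or limma-voom, with 2 higher and 3 lower at an unadjusted p under 0.05, and DESeq2 called 1 higher and 1 lower. Their summed level was 867 to 1084 CPM in cKO and 955 to 1095 CPM in WT. Alas2, a gene of red cell precursors, had 97 reads in cKO replicate 4, 5 to 8 in the other cKO libraries and 2 to 29 in WT. Astrocyte markers summed to 88.5 to 141 CPM in cKO and 135 to 141 CPM in WT, and neuron markers to 1.57 to 3.62 and 1.46 to 1.94 CPM.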
